A study of Mus musculus with 6 samples.

Results

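The TCA cycle enzymes and the itaconate synthase were examined in CD11b+ cells from subcutaneous tumors as 9 genes, taken from the deposited count table by symbol. All 9 were found among its 25701 genes, and all 9 passed the filter on low counts that left 13485 genes. *Cs*, *Idh1*, *Idh2*, *Idh3a*, *Ogdh*, *Suclg1*, *Fh1* and *Mdh2* encode enzymes or enzyme subunits, and *Acod1*, also called *Irg1*, encodes the itaconate synthase. Bulk poly-A RNA-seq was made from 3 MCT2 CO and 3 MCT2 KO preparations of CD11b+ cells. The mice came from a conditional line on a C57BL/6 background, MCT2loxP/loxP; Cre+, in which an inducible Cre acts throughout the body. MCT2 KO mice were given tamoxifen at 8 weeks of age and MCT2 CO mice were given vehicle without tamoxifen, so that the deletion and the drug cannot be told apart. TC1 lung tumor cells were placed under the skin of the flank in both groups, and the tumors grew for 24 days. The methods give an interval of 2 days between treatment and tumor cells for the mice given tamoxifen. The labels give lung as tissue and purified macrophage as cell type, whereas the methods describe magnetic selection of CD11b+ cells from flank tumors.

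The TCA cycle runs in mitochondria, where acetyl-CoA is joined to oxaloacetate as citrate and is oxidized step by step, with the electrons passed to the respiratory chain. Macrophages activated by microbial products or interferons are known to divert cis-aconitate out of the cycle, since ACOD1 converts it to itaconate, a metabolite that inhibits succinate dehydrogenase and dampens inflammatory gene expression. MCT2, the transporter deleted here, carries pyruvate and lactate across membranes, and pyruvate is a source of the acetyl-CoA that enters the cycle.

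Total counts ranged from 24863611 to 31713704 per sample, and the 9 genes together took 0.0977% to 0.117% of them. *Slc16a7*, which encodes MCT2, had 481, 287 and 298 counts in the MCT2 CO samples and 196, 162 and 133 in the MCT2 KO samples, so all 3 MCT2 KO samples lay below the MCT2 CO samples and none was at 0 (log2 fold change -1.05, adjusted p = 0.370 by edgeR). DESeq2 over the 18508 genes with any count called it (log2 fold change -1.04, adjusted p = 0.00908). On the first 2 principal components of the 500 most variable genes, MCT2 CO replicate 3 and MCT2 KO replicate 2 lay apart from the rest. The first component (39.7% of the variance) separated the groups, with MCT2 CO at -22.7 to -3.13 and MCT2 KO at 8.54 to 11.8. Of 12 macrophage markers, 11 were tested, and their summed level was 5694 to 7610 CPM (counts scaled to TMM-normalized library size) in MCT2 CO and 6815 to 10779 in MCT2 KO. All 11 log2 fold changes were above 0 (50.1% of all genes). Of the 11, 1 (*Lyz2*) was higher in MCT2 KO at an unadjusted p under 0.05 (3.77% of all genes). In each of the 11, *Lyz2* included, the groups overlapped. The gene of CD11b itself, *Itgam*, had 1 count over all samples, and 99.1% of its exons lie inside the span of another listed gene. Of 13 neutrophil markers, 9 were tested, and 6 were higher in MCT2 KO at an unadjusted p under 0.05 (3.77% of all genes). In these 6 the groups did not overlap (7.07% of all genes, higher in MCT2 KO). The log2 fold changes were 4.82 for *Ngp*, 2.83 for *Ltf*, 2.35 for *Retnlg*, 1.87 for *S100a9*, 1.53 for *S100a8* and 0.86 for *Mmp8*. *S100a9*, the highest of the 6 in level, had 2.58 to 4.18 CPM in MCT2 CO and 7.63 to 20.9 in MCT2 KO. DESeq2 called 5 of the markers (0.448% of all genes with any count). The sum of the 9 tested markers, 88.5 to 106 CPM in MCT2 CO and 74.1 to 190 in MCT2 KO, was mostly *Csf3r*. That gene had 70.9 to 94.3 CPM in MCT2 CO and 41.1 to 120 in MCT2 KO. *Ly6g*, a defining neutrophil marker, had 0 to 4 counts. The summed fibroblast markers were at 1693 to 2872 CPM in MCT2 CO and 1335 to 1467 in MCT2 KO. Of the 6, 4 were lower at an unadjusted p under 0.05 (5.6% of all genes), and DESeq2 called 3 (0.448%). The 5 tested B cell markers summed to 17.0 to 19.9 CPM in MCT2 CO and 3.81 to 15.9 in MCT2 KO. All 5 had log2 fold changes below 0, with 3 lower at an unadjusted p under 0.05 (5.6% of all genes) and 2 called by DESeq2 (0.448%). Sums in MCT2 CO against MCT2 KO were 35.9 to 65.1 against 32.8 to 102 for 8 T and NK cell markers, 87.6 to 94.7 against 75.5 to 130 for 4 endothelial markers, and 13.7 to 20.8 against 18.4 to 33.2 for the 2 tested of 6 tumor and epithelial markers. In RNA of mixed preparations, fewer cells of a type and less RNA per cell cannot be told apart, and the part of these other cells in the values below was not tested.

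The genes are placed by GENCODE M21 on GRCm38, because the positions in the count table match that annotation for 2.22% of the genes while the span lengths match for 98.1%. *Cs* lies on chromosome 10 from 128337734 to 128362479, *Idh1* on chromosome 1 from 65158616 to 65186500, *Idh2* on chromosome 7 from 80094846 to 80115392, and *Idh3a* on chromosome 9 from 54586334 to 54604661. *Ogdh* lies on chromosome 11 from 6291633 to 6356642, *Suclg1* on chromosome 6 from 73248382 to 73276911, *Fh1* on chromosome 1 from 175600374 to 175625635, *Mdh2* on chromosome 5 from 135778480 to 135790398, and *Acod1* on chromosome 14 from 103046977 to 103056573. All 9 are protein-coding. Of the exons of *Fh1*, 8.31% lie inside the span of *Kmo* on the opposite strand, and *Idh2* has another listed gene inside an intron. The exons of the other 7 genes overlap no other listed gene.

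The promoters of *Acod1* and *Cs* are shown because they set the inducible gene of the group beside a housekeeping enzyme. They are RefSeq sequences of GRCm38.p6 on the plus strand, from 100 to 11 bases before the RefSeq start, and capitals mark TATAAA, the core of a TATA box.
*Acod1*, chr14:103046912-103047001: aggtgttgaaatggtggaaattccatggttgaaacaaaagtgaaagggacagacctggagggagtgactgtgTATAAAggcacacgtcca
*Cs*, chr10:128337627-128337716: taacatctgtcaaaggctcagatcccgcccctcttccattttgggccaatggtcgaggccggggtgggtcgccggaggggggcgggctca
RefSeq promoters were found for 8 of the 9 genes, in 14 windows of 250 bases before a start. TATAAA, searched on both strands, was in the *Acod1* window alone among the 14, at 28 bases before the RefSeq start, and in 12.4% of all 32851 windows. The 2 annotations differ here: the *Acod1* window ends at 103047011, past the GENCODE M21 start at 103046977, and the TATAAA lies inside the GENCODE span. GGGCGG, the GC box, was in 8 of the 14 windows and in 32.7% of all windows. By gene it was in 6 of the 8, some of which have several windows, with *Suclg1* and *Acod1* lacking it. CCAAT was found in 9 of the 14 windows, from 6 of the 8 genes, and in 33.9% of all windows, whereas CCGGAAG (an ETS site, 6.91% of all windows) was in none of the 14. The *Acod1* window held 2 CpG dinucleotides and was 44.4% G and C, and each window of the enzymes held more of both, with 9 to 35 CpG and up to 74.0% G and C. The medians over all windows were 6 CpG and 52.4%.

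Levels of different genes were compared per length, as CPM per kilobase of merged exons, averaged over the 6 samples. *Mdh2*, the malate dehydrogenase that closes the cycle, was highest at 62.0, above 94.9% of the tested genes. *Idh2* followed at 44.3, *Ogdh* at 39.2 and *Cs* at 38.2, and the ranges of neighbours among these 3 overlapped. *Acod1* stood at 19.2, above 78.9% of the tested genes, and its range overlapped that of *Idh3a* at 17.4, which in turn overlapped *Fh1* at 16.04 and *Idh1* at 14.9. *Suclg1* was lowest at 7.14, below every sample of *Idh1*. *Acod1* was above *Idh3a* in 4 of the 6 samples, so their order is not settled. The level of the itaconate synthase per exon length was thus below *Mdh2*, *Idh2*, *Ogdh* and *Cs* in every sample.

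**Figure D1:**
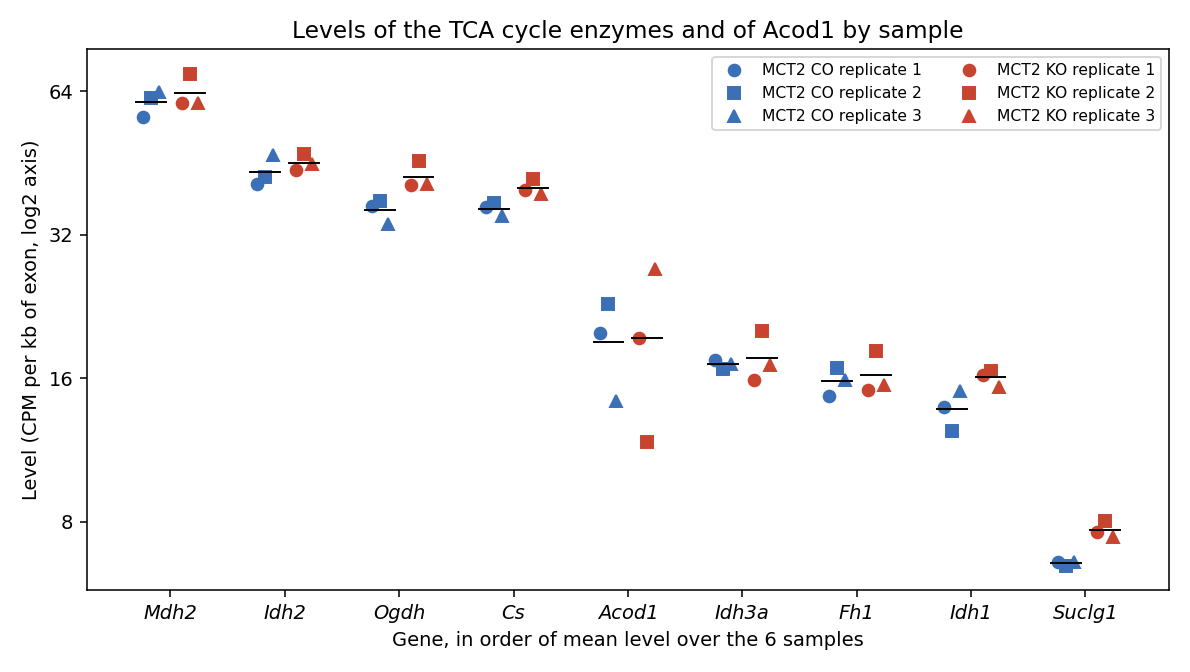
Level of each gene in CPM per kilobase of merged exons on a log2 axis, for the 3 MCT2 CO (blue) and 3 MCT2 KO (red) samples, with marker shape for the replicate number and a black line at the group mean. *Mdh2* is highest, *Suclg1* lowest, and *Acod1* is spread most widely, from 11.8 to 27.2.

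To ask whether the cycle differed between the groups, MCT2 KO was compared with MCT2 CO by the quasi-likelihood test of edgeR, fitted to all 13485 genes. A gene was called where its adjusted p did not exceed 0.05 and its log2 fold change was 0.58 or more in either direction. No gene was called (0%), and so 0 of the 9 genes passed. An unadjusted p under 0.05 was reached by 3 of the 9, *Idh1*, *Ogdh* and *Suclg1*, all higher in MCT2 KO, and by 9.37% of all genes, with 3.77% higher and 5.6% lower. In 14 alternatives of test, scaling, filter, block or samples, that level was kept in 12 for *Suclg1*, in 11 for *Ogdh* and in 4 for *Idh1*. All 3 samples of MCT2 KO were above all 3 of MCT2 CO in 4 of the 9 genes, the same 3 and *Cs*, and in 0 of the 9 they were below. Over all genes the groups did not overlap in 15.8%, with 7.07% higher and 8.77% lower. All 9 log2 fold changes were above 0, as were 50.1% of those of all genes. Their median was 0.064, with 0.00037 over all genes. DESeq2 called 0 of the 9, both among all genes with any count, where it called 83 (0.448%), and among the filtered genes (0.586%).

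Citrate synthase (*Cs*), which starts the cycle, had 211, 216 and 203 CPM in the MCT2 CO samples, given here and below in the order of their replicate numbers, and 229, 241 and 225 in the MCT2 KO samples. The groups did not overlap, and the lowest MCT2 KO sample was MCT2 KO replicate 3. The estimated log2 fold change, with its standard error (SE), was 0.14 (SE 0.078, adjusted p = 0.598 by edgeR).

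The isocitrate dehydrogenases follow. *Idh3a* encodes the catalytic subunit of the NAD-dependent enzyme of the cycle, *Idh2* the mitochondrial NADP-dependent enzyme, and *Idh1* its counterpart in cytosol and peroxisomes. *Idh3a* had 88.8, 85.03 and 86.8 CPM in MCT2 CO and 80.5, 102 and 86.7 in MCT2 KO. Its MCT2 KO samples held both the highest and the lowest value, and the log2 fold change was 0.045 (SE 0.099, adjusted p = 0.909 by edgeR). *Idh2* had 106, 109 and 121 CPM in MCT2 CO and 113, 122 and 116 in MCT2 KO, with overlapping groups and a log2 fold change of 0.063 (SE 0.083, adjusted p = 0.838 by edgeR). *Idh1* had 38.6, 34.5 and 41.7 CPM in MCT2 CO and 45.0, 46.0 and 42.5 in MCT2 KO. For *Idh1* the groups lay apart by under 1 CPM, and the log2 fold change of 0.22 (standard error 0.094) had an unadjusted p of 0.0490 and an adjusted p of 0.533 by edgeR.

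Within a library, the ratio of *Idh1* to *Idh2* does not depend on how libraries are scaled. Per kilobase, *Idh1* made up 25.4%, 22.8% and 24.3% of *Idh1* plus *Idh2* in MCT2 CO and 27.1%, 26.0% and 25.5% in MCT2 KO. The group means were 24.1% ± 1.31 and 26.2% ± 0.839 (SD, n = 3). The lowest MCT2 KO share was 25.46% and the highest MCT2 CO share 25.38%, so the groups touched without overlapping, and no test was made of this share.

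*Ogdh* encodes the E1 subunit of the 2-oxoglutarate dehydrogenase complex, a control point of the cycle. It had 200.03, 205 and 184 CPM in MCT2 CO and 221, 248.7 and 223 in MCT2 KO. Every MCT2 KO sample was above every MCT2 CO sample, and the log2 fold change of 0.23 (standard error 0.089) had an unadjusted p of 0.0303 and an adjusted p of 0.497 by edgeR. *Suclg1* encodes the α subunit of succinyl-CoA synthetase, shared by its GTP- and ATP-forming versions. It had 30.5, 29.9 and 30.5 CPM in MCT2 CO and 35.3, 37.2 and 34.4 in MCT2 KO. The 3 MCT2 CO samples were within 1 CPM of each other, and the gap to MCT2 KO was wider than the range of either group. The log2 fold change of *Suclg1* was 0.23 (SE 0.078). Its adjusted p of 0.445 by edgeR was the lowest of the 9, with an unadjusted p of 0.0175.

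*Fh1*, the fumarase, had 49.9, 57.1 and 53.9 CPM in MCT2 CO and 51.3, 61.8 and 52.5 in MCT2 KO, with a log2 fold change of 0.041 (SE 0.10, adjusted p = 0.921 by edgeR). *Mdh2* had 201, 220 and 227 CPM in MCT2 CO and 215, 247 and 216 in MCT2 KO, with a log2 fold change of 0.064 (SE 0.095, adjusted p = 0.858 by edgeR). In both genes, 2 MCT2 KO samples lay within the MCT2 CO range and replicate 2 lay above it.

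*Acod1* had 52.1, 60.1 and 37.6 CPM in MCT2 CO and 51.0, 30.9 and 71.2 in MCT2 KO. The highest and the lowest of the 6 values were both in MCT2 KO, and the group means of 49.96 ± 11.4 and 51.0 ± 20.2 CPM (SD, n = 3) differed by far less than either spread. The log2 fold change was 0.028 (SE 0.29, adjusted p = 0.982 by edgeR), and the exact permutation test over the samples gave p = 1 (two-sided). In the same test, *Cs*, *Idh1*, *Ogdh* and *Suclg1* reached p = 0.1, the smallest that 3 samples against 3 allow, and *Idh2*, *Mdh2*, *Fh1* and *Idh3a* gave exact p values of 0.4, 0.6, 0.8 and 0.9.

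The intervals say how large a difference these samples leave room for. The single-gene 95% intervals of the 8 enzymes ran from -0.19 at the lowest bound to 0.44 at the highest, which lies inside the threshold of 0.58 in both directions. *Ogdh*, at the highest bound, was 1.18-fold higher in MCT2 KO with an interval of 1.02- to 1.36-fold. For *Acod1* the interval was -0.64 to 0.69, or 0.643- to 1.62-fold, which reaches past the threshold on both sides, so these samples leave room for a change of that size in either direction. The coefficient of variation of *Acod1* over the 6 samples was 29.1%, more than that of 94.997% of the 10614 tested genes of at least 5 CPM, whose median was 9.73%. Those of the 8 enzymes were between 5.71% and 10.5%.

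**Figure D2:**
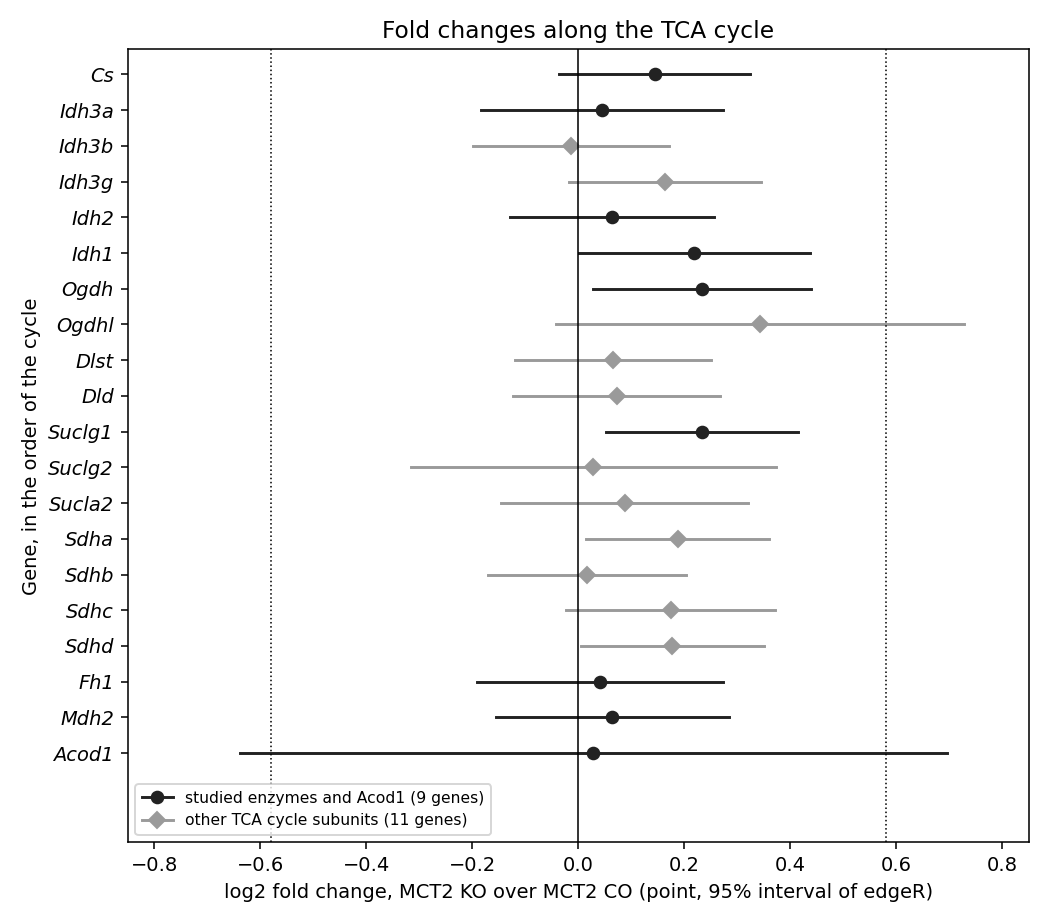
Log2 fold change of MCT2 KO over MCT2 CO (points) with its 95% interval from edgeR's quasi-likelihood test (bars), for the 9 genes (black) and 11 other subunits (grey) in the order of the cycle, with dotted lines at the threshold of 0.58 in each direction. The points of the enzymes lie between 0.041 and 0.23, and *Acod1* has the widest bar of the 9.

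MCT2 KO replicate 2 was the highest of the 6 samples for all 8 enzymes, and it was the lowest for *Acod1*. Without it, 0 of the 9 genes were at an unadjusted p under 0.05, where 6.24% of all genes were higher at that level, and the log2 fold changes of *Idh3a*, *Fh1* and *Mdh2* were -0.055, -0.048 and -0.0050. The median log2 fold change of the 8 enzymes was 0.10 with all samples and 0.074 without this sample. *Cs*, *Idh1*, *Ogdh* and *Suclg1* were still above every MCT2 CO sample in the 2 MCT2 KO samples that were left, against 15.4% of all genes. Without MCT2 CO replicate 3, all 8 enzymes had log2 fold changes above 0, with a median of 0.12, and 2 of the 9 genes were higher at an unadjusted p under 0.05 (2.47% of all genes). The log2 fold change of *Acod1* moved from 0.028 to 0.29 without MCT2 KO replicate 2, to -0.28 without MCT2 KO replicate 3 and to -0.14 without MCT2 CO replicate 3.

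Relative to the enzymes, *Acod1* came to 8.91%, 9.90% and 6.12% of their summed level per kilobase in MCT2 CO and to 8.13%, 4.41% and 11.3% in MCT2 KO. The means were 8.31% ± 1.96 and 7.94% ± 3.44 (SD, n = 3), and the range of MCT2 KO enclosed that of MCT2 CO. The summed level of the 8 enzymes was 223, 232 and 234 CPM per kilobase in MCT2 CO and 239, 267 and 240 in MCT2 KO, where the groups did not overlap.

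**Figure D3:**
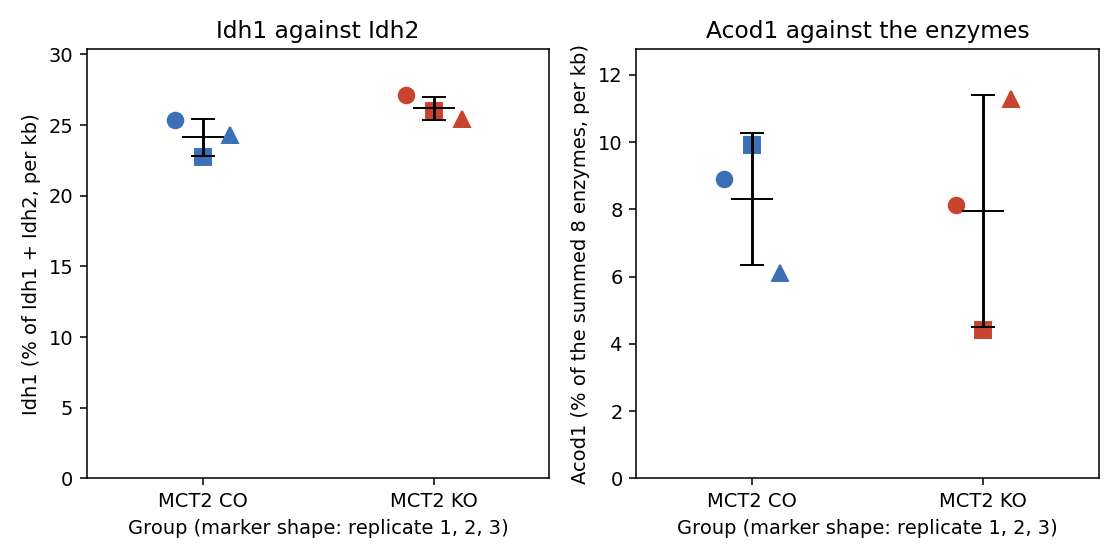
*Idh1* as a percent of *Idh1* plus *Idh2* (left) and *Acod1* as a percent of the summed 8 enzymes (right), per kilobase of exon, for each sample, with the group mean and SD (n = 3) in black. On the left the MCT2 KO samples (25.5% to 27.1%) begin where the MCT2 CO samples end (25.4%), and on the right the MCT2 KO range of 4.41% to 11.3% encloses that of MCT2 CO.

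The genes most like *Acod1* over the 6 samples were sought among 10605 tested genes of at least 5 CPM by Pearson's correlation of log2 CPM. The 5 nearest were *Il27* (r = 0.998), a cytokine subunit of activated myeloid cells, *Ly6i* (0.996), a Ly6 family surface protein gene, *Abcb1a* (0.996), a drug efflux transporter, *Sp100* (0.994), a nuclear body protein that interferon induces, and *Xaf1* (0.989), an interferon-inducible regulator of apoptosis. *Il27* had 6.47, 7.77 and 4.03 CPM in MCT2 CO and 6.37, 3.19 and 10.4 in MCT2 KO, the same order of samples as *Acod1*. With the 2 samples farthest from the median of *Acod1* left out (MCT2 KO replicates 2 and 3), the 5 values of r were 0.983 to 0.998 over 4 samples, and Spearman's rho over all 6 was 0.943 to 1. These were the highest of a search through all these genes on shared libraries, so no p is given.

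For the mean of the 8 enzymes, the 4 nearest genes were *Ufsp2* (r = 0.997), a protease of the UFM1 system, *Adh5* (0.995), the glutathione-dependent formaldehyde dehydrogenase, *Eif3l* (0.994), a translation initiation factor subunit, and *Hilpda* (0.992), a hypoxia-inducible lipid droplet protein. *Hilpda* had 13.2, 14.8 and 15.9 CPM in MCT2 CO and 19.0, 31.6 and 20.9 in MCT2 KO, again with MCT2 KO replicate 2 highest. Among the 8 enzymes themselves, the 28 pairwise correlations ran from 0.0995 (*Idh1* with *Fh1*) to 0.990 (*Cs* with *Ogdh*), with a median of 0.508. *Acod1* had negative correlations with all 8, from -0.717 (*Mdh2*) to -0.161 (*Ogdh*). MCT2 KO replicate 2 was the highest sample for all 8 enzymes and the lowest for *Acod1*. Whether the negative sign holds without that sample was not tested. These values rest on 6 libraries that all the genes share and are given as a description.

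**Figure D4:**
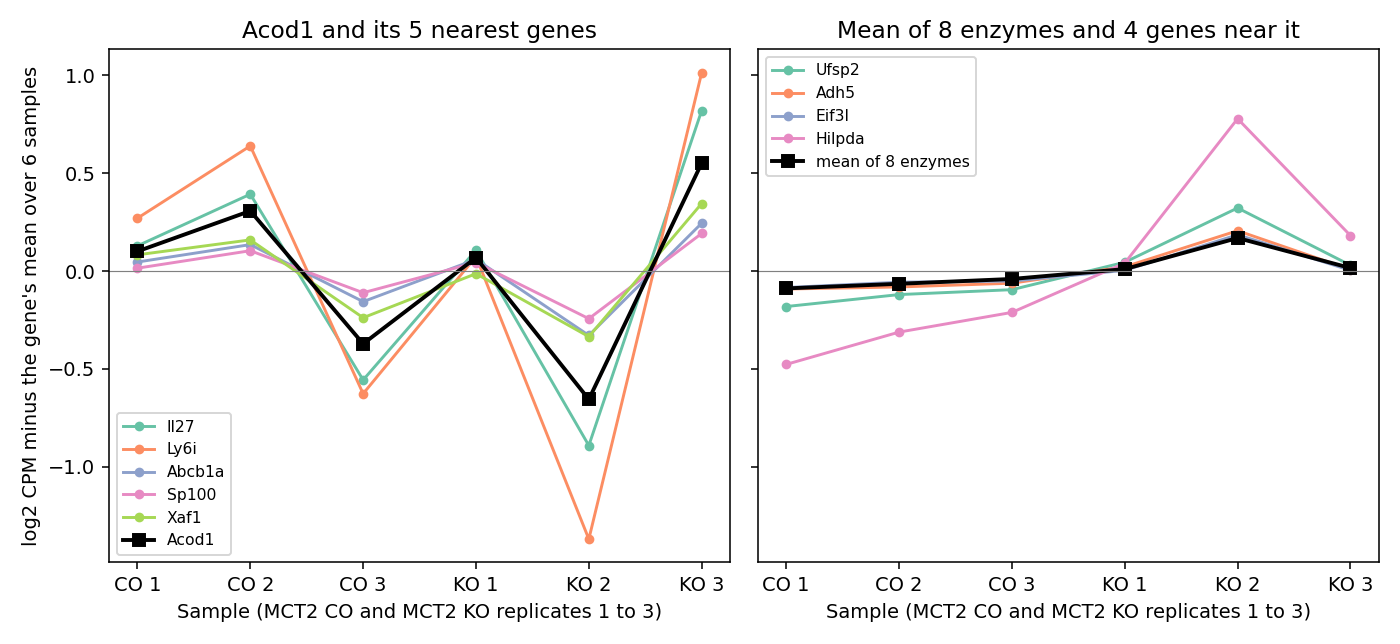
Log2 CPM minus each gene's own mean over the 6 samples, for *Acod1* and its 5 nearest genes (left) and for the mean of the 8 enzymes and its 4 nearest genes (right), with lines drawn to guide the eye across samples that have no order. *Acod1* is lowest in MCT2 KO replicate 2 (30.9 CPM) and highest in MCT2 KO replicate 3 (71.2 CPM), and the enzymes are highest in MCT2 KO replicate 2.

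The other subunits of the cycle were read from the same fit. Of 11 other genes, 11 were tested, 0 were called, 10 log2 fold changes were above 0 and 1 below, and 2 were higher at an unadjusted p under 0.05 (3.77% of all genes). Their median log2 fold change was 0.087. Succinate dehydrogenase, the enzyme that itaconate inhibits, held both of these genes. Its flavoprotein subunit *Sdha* had 169, 166 and 160 CPM in MCT2 CO and 188, 193 and 182 in MCT2 KO, a log2 fold change of 0.19 (SE 0.075, adjusted p = 0.509 by edgeR). The membrane anchor *Sdhd* had 87.6, 82.7 and 87.1 CPM in MCT2 CO and 98.8, 100.1 and 92.2 in MCT2 KO, a log2 fold change of 0.18 (SE 0.075, adjusted p = 0.531 by edgeR). In both genes the groups did not overlap. The other anchor, *Sdhc*, also had groups that did not overlap (log2 fold change 0.17), and the iron-sulfur subunit *Sdhb* had groups that did (0.017). Over the 11 genes, all MCT2 KO samples lay above all MCT2 CO samples in 4, and over all genes in 7.07%. Without MCT2 KO replicate 2, 0 of the 11 were at an unadjusted p under 0.05 in the higher direction, and likewise without MCT2 CO replicate 3.

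The regulatory subunits of the NAD-dependent isocitrate dehydrogenase were at a log2 fold change of 0.16 for *Idh3g*, whose groups did not overlap, and -0.013 for *Idh3b*. *Dlst* and *Dld*, the partners of OGDH in its complex, were at 0.065 and 0.072, and *Ogdhl*, an OGDH-like gene at 12.4 to 21.6 CPM, was at 0.34 with overlapping groups. The β subunits *Suclg2* and *Sucla2*, which pair with SUCLG1, were at 0.028 and 0.087.

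Genes that feed the cycle showed no member at an unadjusted p under 0.05. Of 12, 11 were tested (*Me3* was too low), 7 were above 0 and 4 below, and the median log2 fold change was 0.031. *Pdha1*, the E1α subunit of pyruvate dehydrogenase, had 107, 107 and 112 CPM in MCT2 CO and 111, 125 and 120 in MCT2 KO (log2 fold change 0.12), with overlapping groups, and 30.6% of its exons lie inside the span of *Map3k15*. In the list of cytosolic counterparts and mitochondrial carriers, 10 were tested, 0 were called, 8 were above 0 and 2 were higher at an unadjusted p under 0.05 (3.77% of all genes). *Slc25a11*, the carrier that exchanges malate and 2-oxoglutarate, had 90.5, 86.3 and 76.2 CPM in MCT2 CO and 102, 100.2 and 96.8 in MCT2 KO (log2 fold change 0.24, SE 0.087, adjusted p = 0.488 by edgeR). *Slc25a13*, an aspartate and glutamate carrier of the malate shuttle, had 24.7, 25.9 and 23.5 CPM in MCT2 CO and 26.6, 36.7 and 31.3 in MCT2 KO (log2 fold change 0.35, SE 0.13, adjusted p = 0.480 by edgeR). In both, every MCT2 KO sample was above every MCT2 CO sample, as in 3 of the 10 genes and in 7.07% of all genes. *Aco1*, the cytosolic aconitase, had 66.0 to 67.0 CPM in MCT2 CO and 63.0 to 71.4 in MCT2 KO.

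Of 11 genes that handle itaconate or respond to it, 10 were tested, 0 were called, 5 were above 0 and 5 below, and 1 was at an unadjusted p under 0.05, a share near the 9.37% of all genes. This was *Clybl*, the mitochondrial citramalyl-CoA lyase that breaks down a product of itaconate, with 6.74, 7.23 and 5.49 CPM in MCT2 CO and 8.51, 10.5 and 9.08 in MCT2 KO. All MCT2 KO samples were higher, and the log2 fold change was 0.53 (standard error 0.16, unadjusted p = 0.00991, adjusted p = 0.429 by edgeR). *Oxgr1*, a receptor that binds itaconate, had 1 count over all samples.

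Among 11 genes of inflammatory activation, the setting in which *Acod1* is known to be induced, 10 were tested, 0 were called, 6 were above 0 and 4 below, and 2 were higher at an unadjusted p under 0.05 (3.77% of all genes). *Nos2*, the inducible nitric oxide synthase, had 1.27, 2.42 and 0.978 CPM in MCT2 CO and 3.86, 6.66 and 17.8 in MCT2 KO (log2 fold change 2.60, SE 0.59, adjusted p = 0.370 by edgeR). *Il1rn*, the interleukin-1 receptor antagonist, had 136, 113 and 85.8 CPM in MCT2 CO and 184, 143 and 152 in MCT2 KO (log2 fold change 0.52, SE 0.17, adjusted p = 0.444 by edgeR). *Il1b* had 842, 878 and 637 CPM in MCT2 CO and 1143, 452 and 728 in MCT2 KO, and like *Acod1* it was lowest in MCT2 KO replicate 2.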

How the data were processed

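Poly-A RNA of CD11b+ preparations was sequenced with a stranded kit. The authors aligned reads to GRCm38 with STAR 2.7.11b and deposited raw counts per gene from featureCounts 2.1.1, neither normalized nor pooled; the annotation, feature type and strand setting are not given in the sources used here. Gene lengths in the table are whole spans, so exon lengths came from GENCODE M21. The raw counts were analysed in R 4.3.3 with DESeq2 1.42.0, limma 3.58.1 and edgeR 4.0.16. After filterByExpr (a minimum count of 10 and a minimum total of 15) and TMM, 13485 genes were tested with the quasi-likelihood method and p values were adjusted by Benjamini–Hochberg; the study names DESeq2, run here as an alternative. The procedure was run on simulated counts with set fold changes, and the share of these that it recovered is not reported here. No replicates looked like a library deposited again. The labels do not tie samples to separate animals, so p values measure the spread between these samples, which may be technical. The members and lists were chosen with earlier results of these data known. Named genes were the 9 members, the remaining subunits, in other lists the first gene and genes at an unadjusted p under 0.05 (at most 5), the 5 nearest genes of each profile and *Slc16a7*; *Oxgr1*, *Me3*, *Itgam*, *Ly6g*, *Csf3r*, *Map3k15*, *Cxcl10*, *Art3* and *Kmo* were named after their values were seen. A gene of the remaining subunits and another among the nearest genes are not reported here. For the marker lists other than that of neutrophils, sums stand in for most single genes.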

Additional observations from a re-analysis of the deposited data

How the results depend on the processing

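None of the 9 genes was called under any alternative that was run. Over all genes, DESeq2 called 79 among the filtered genes and 83 among those with any count, and edgeR called 2 among the latter. With each sample left out in turn, the calls ranged from 0 to 2 (2 without MCT2 KO replicate 2). Of the 9 genes, those at an unadjusted p under 0.05 were 3 as reported and 0 to 3 over the alternatives, with 1 without MCT2 CO replicate 1 or 2, 0 without MCT2 KO replicate 2, and 2 with DESeq2, upper-quartile factors, the stricter filter or the replicate block. For *Idh1* that p ranged from 0.0206 to 0.179. *Cs*, *Idh1*, *Idh2*, *Ogdh* and *Suclg1* stayed above 0 in all 14 alternatives each. Leaving out a sample gave log2 fold changes of -0.055 to 0.13 for *Idh3a*, -0.048 to 0.10 for *Fh1*, -0.0050 to 0.11 for *Mdh2* and -0.28 to 0.29 for *Acod1*. The sign turned without MCT2 KO replicate 2 for the first 3 genes, without MCT2 CO replicate 1 for *Fh1* (-0.0080), and without MCT2 CO replicate 3 (-0.14) or MCT2 KO replicate 3 (-0.28) for *Acod1*. *Acod1* was also below 0 with limma-voom (-0.037) and with the replicate block (-0.024). The deviations of same-numbered samples had correlations of -0.247 to 0.216, and those of differently numbered samples -0.212 to 0.292. With 3 samples a group, these values cannot decide whether the numbers pair samples. The replicate block called 0 genes and 0 of the 9. By the length given in the count table, *Mdh2* stayed highest and *Fh1*, *Idh1* and *Suclg1* lowest, while *Cs* moved to rank 2, *Idh2* to 3, *Acod1* to 4, *Idh3a* to 5 and *Ogdh* to 6. The counts without MCT2 CO replicate 3 and without MCT2 KO replicate 2 were chosen after seeing the data. With 3 samples a group, precision is limited by the spread between samples.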

Other observations

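*Cxcl10*, an interferon-inducible chemokine gene whose exons lie wholly inside the span of *Art3*, had 0 counts in all 6 samples. *Kmo*, whose span covers 8.31% of the *Fh1* exons, had 16.9, 18.9 and 18.1 CPM in MCT2 CO and 16.6, 9.30 and 11.3 in MCT2 KO, a log2 fold change of -0.54 (SE 0.20, adjusted p = 0.491 by edgeR), opposite in sign to that of *Fh1*.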
